A study of Mus musculus with 4 samples.

Results

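The interleukin-6 (IL-6) and interleukin-1 (IL-1) families are the cytokine ligands, receptors and signalling genes by which fibroblasts sense and pass on inflammation. The account below covers 10 of them, chosen by name: Il6, Lif, Il6st, Osmr, Lifr, Socs3, Stat3, Il1r1, Il1rl1 and Il33. The choice was made with earlier results of these data known. All 10 are among the 16383 genes of the deposited count table, and 9 of the 10 passed the filter on low counts. The cells were primary cardiac fibroblasts from hearts of 3-month-old wild-type mice, collected on day 7 of reprogramming toward cardiomyocytes. Cells of both groups had received Mef2c, Gata4 and Tbx5 (MGT) and a short hairpin. The hairpin targeted Nr4a3, an orphan nuclear receptor, in the shNr4a3 group (2 libraries) and was non-targeting in the shNT group (2 libraries). The study asked by what molecular route knockdown of Nr4a3 favours reprogramming, and the labels leave unsaid whether libraries sharing a hairpin derive from different animals or cultures. The p-values therefore cover the spread between these libraries alone, and that spread may be technical.

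Cytokines of the IL-6 family bind a further receptor chain besides the shared chain gp130, encoded by Il6st. IL-6 itself pairs gp130 with its own alpha chain, leukaemia inhibitory factor (LIF) pairs it with the LIF receptor, and oncostatin M pairs it with the oncostatin M receptor. Janus kinases on these chains phosphorylate the transcription factor STAT3, which induces SOCS3, an inhibitor that binds gp130 and ends the signal. IL-1 acts through the receptor encoded by Il1r1 together with an accessory chain and switches on NF-kB, and IL-33 acts in the same way through the receptor ST2, encoded by Il1rl1. Cardiac fibroblasts are a known source of IL-6 and a known target of IL-1 in the injured heart.

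Total counts over the genes of the table ran from 30395159 to 30976450 in shNr4a3 and from 28220440 to 30479301 in shNT, so that 1 count was worth 0.0326 to 0.0350 CPM (counts scaled to library size, after TMM). The targeted gene had 18 and 32 counts in shNr4a3 against 356 and 353 in shNT. Levels of fibroblast markers varied widely. Col1a1 was at 1084 CPM in shNr4a3 and 2012 CPM in shNT, and Tcf21 at 8.38 CPM in shNr4a3 and 85.3 CPM in shNT. Of 10736 genes tested, 60.2% passed an edgeR adjusted p of 0.05, 30.7% as higher and 29.4% as lower in shNr4a3. The counts called in each list of genes and markers below stand beside these shares. Against this background, 8 of the 9 chosen genes that were tested were called, 2 as higher and 6 as lower. Of the 9, 5 were called and had an absolute log2 fold change over 1, where 26.3% of all genes tested did. Their median log2 fold change was -1.44, beside 0.02 over all genes tested. The groups did not overlap for any of the 9, which was also the case for 81% of all genes tested. The 9 genes were chosen with earlier results of these data known. That choice may have shaped these shares and the median, so no conclusion about the family is drawn from them. In bulk samples such as these, fewer cells of a type and less RNA per cell cannot be told apart.

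**Figure D1:**
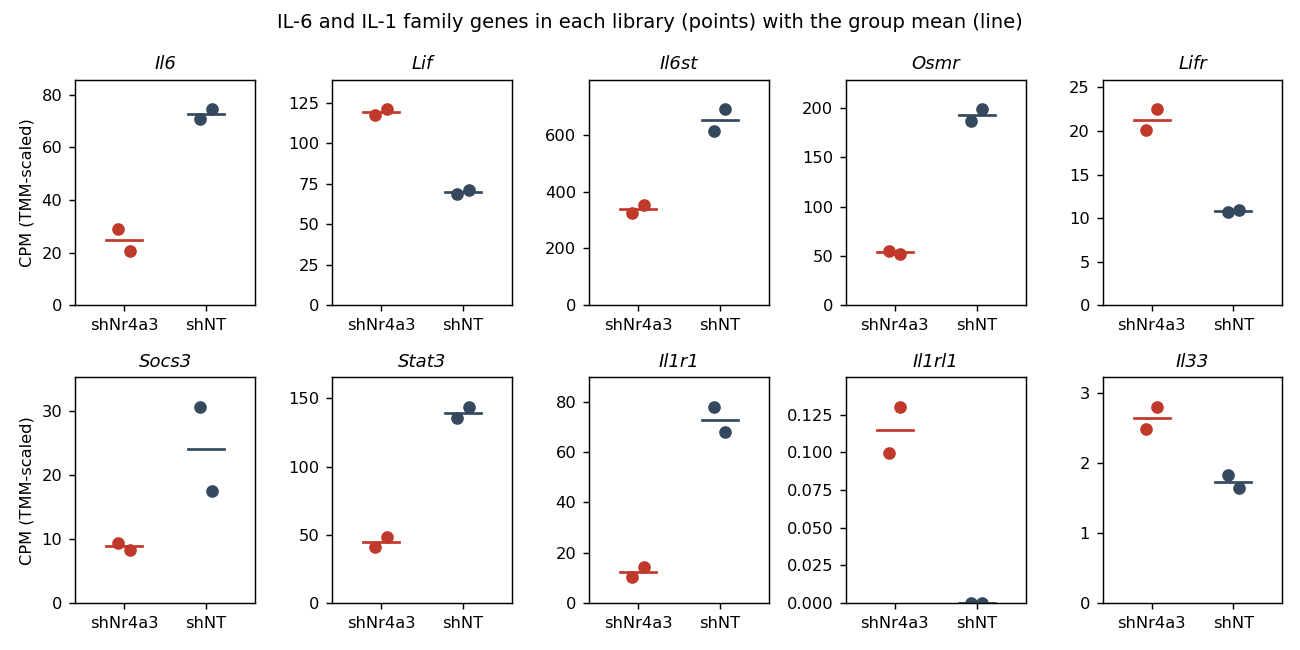
Normalised read counts (CPM, y axis from 0) of the 10 genes in each library, with shNr4a3 libraries left of shNT libraries, a point per library and a line at the group mean. Il6, Il6st, Osmr, Socs3, Stat3 and Il1r1 sit lower in shNr4a3, Lif and Lifr sit higher, and Il1rl1 is at or under 0.13 CPM in every library.

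Among the ligands, Il6 and Lif moved in opposite directions. Il6 encodes the founding cytokine of the family (chromosome 5, 30013114 to 30019981, plus strand, mm10). It had 872 and 636 counts in the shNr4a3 libraries (28.9 and 20.7 CPM), against 2019 and 2279 counts in the shNT libraries (70.7 and 74.6 CPM). Both knockdown libraries were below both control libraries, and the knockdown libraries differed more from each other than the control libraries did. The means were 24.8 ± 5.78 CPM in shNr4a3 and 72.6 ± 2.73 CPM in shNT (SD, n = 2 each). The log2 fold change was -1.55 (SE 0.145, edgeR adjusted p = 1.73e-05), which is a level 2.93-fold lower. Lif encodes the cytokine that keeps mouse embryonic stem cells undifferentiated and acts on cardiac cells through gp130 (chromosome 11, 4257557 to 4272514, plus strand). Its counts were 3550 and 3720 in shNr4a3 (118 and 121 CPM), against 1971 and 2173 in shNT (69.0 and 71.1 CPM). Lif was thus higher in both knockdown libraries, with little spread within either group. Its log2 fold change was 0.77 (SE 0.079, edgeR adjusted p = 3.35e-05), or 1.7-fold.

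The promoter windows of Il6 and Lif are shown because these ligands changed in opposite directions, and that of Socs3 because STAT3 is its known activator. Sequences are those of RefSeq on GRCm38.p6, from 250 bases before to 50 after the start site, in the direction of transcription. Start sites are those of RefSeq, whereas the gene coordinates in the text are those of GENCODE. For Socs3, Osmr and Lifr, the windows lie wholly inside the GENCODE gene. Il6 lies at chr5:30012864-30013163 (plus strand), Lif at chr11:4257318-4257617 (plus strand) and Socs3 at chr11:117969317-117969616 (minus strand). Capitals mark matches to any of the 6 motifs searched.
Il6: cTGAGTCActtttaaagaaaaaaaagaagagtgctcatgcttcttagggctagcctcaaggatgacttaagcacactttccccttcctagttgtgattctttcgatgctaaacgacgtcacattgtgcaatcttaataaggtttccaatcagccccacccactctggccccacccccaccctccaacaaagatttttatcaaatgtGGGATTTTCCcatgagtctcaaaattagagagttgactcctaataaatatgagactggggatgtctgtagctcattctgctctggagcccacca
Lif: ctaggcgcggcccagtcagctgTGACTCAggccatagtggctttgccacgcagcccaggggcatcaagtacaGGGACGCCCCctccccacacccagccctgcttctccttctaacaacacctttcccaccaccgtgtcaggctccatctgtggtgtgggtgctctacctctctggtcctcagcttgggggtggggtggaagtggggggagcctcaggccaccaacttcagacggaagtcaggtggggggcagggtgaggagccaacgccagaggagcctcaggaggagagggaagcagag
Socs3: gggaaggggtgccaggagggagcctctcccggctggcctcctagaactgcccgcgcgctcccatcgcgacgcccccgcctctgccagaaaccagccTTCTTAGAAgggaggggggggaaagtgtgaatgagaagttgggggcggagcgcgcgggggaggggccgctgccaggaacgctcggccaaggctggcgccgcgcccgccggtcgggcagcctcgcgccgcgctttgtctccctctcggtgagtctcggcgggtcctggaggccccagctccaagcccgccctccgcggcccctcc
The motifs were TTCNNNGAA for STAT factors, the NF-kB consensus, AAAGGTCA for the NBRE that Nr4a receptors bind as monomers, TGANTCA for AP-1, TGACGTCA for the cyclic AMP response element and TATAAA for the TATA box, searched on both strands. None of the matches in these 3 windows overlapped another.

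Il6 and Lif each held an NF-kB match and an AP-1 match. With the start site as base 0, the NF-kB match spanned bases -44 to -35 in Il6 and -178 to -169 in Lif. The AP-1 match spanned -249 to -243 in Il6 and -228 to -222 in Lif. Socs3 held the STAT match, at -154 to -146. All 10 genes had at least 1 window in the RefSeq table, 14 windows in all. An NF-kB match was found in 3 of the 10 genes (Il6, Lif and Il1r1, with that of Il1r1 in its second window), where 9.55% of the 27025 genes with a window had one. AP-1 matches were found in 3 of the 10 (Il6, Lif and Osmr), where 8.97% of genes had one. The STAT motif was present in Socs3 alone among the 10, beside 9.55% of genes. The NBRE letters were in none of the 14 windows, beside 1.7% of genes, and the cyclic AMP element was also in none, beside 2.03%. The TATA letters were in Il33, beside 15.7% of genes. A match describes letters within these 300 bases, and the data do not measure binding.

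Il33 encodes an IL-1 family alarmin that is stored in the nucleus of stromal cells and released on damage (chromosome 19, 29925114 to 29960718, plus strand). It was scarce, with 75 and 86 counts in shNr4a3 (2.48 and 2.80 CPM) against 52 and 50 counts in shNT (1.82 and 1.64 CPM). Its groups did not overlap, but the log2 fold change of 0.61 (SE 0.320) did not pass the test (edgeR adjusted p = 0.128). Its receptor gene Il1rl1 (chromosome 1, 40429570 to 40465415, plus strand), which encodes ST2, had 3 and 4 counts in shNr4a3 and 0 in both shNT libraries. That is at or just over the floor of 3 counts per library, too few for a fold to be given. Il1rl1 did not pass the filter on low counts and was not tested. Mast cells and innate lymphoid cells also use ST2. Of 6 mast cell markers, Fcer1a and Tpsb2 had 0 counts in every library. The 6 together summed to 2.51 to 3.68 CPM in shNr4a3 and 5.95 to 8.51 CPM in shNT. Of the 3 tested, Cpa3 and Hdc were lower (log2 fold changes -2.11 and -2.36) and Kit did not pass. Cpa3 had 17 and 24 counts in shNr4a3 and 79 and 94 in shNT. Hdc had 4 counts in both shNr4a3 libraries and 16 and 25 in shNT. Markers of T cells and innate lymphoid cells summed to 3.44 to 3.91 CPM in shNr4a3 and 3.54 to 4.22 CPM in shNT, and 0 of their 2 tested genes passed.

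The receptor chains of the IL-6 family did not move together. Il6st, the gp130 gene (chromosome 13, 112464070 to 112510086, plus strand), had 325 and 351 CPM in the shNr4a3 libraries, against 614 and 690 CPM in the shNT libraries. The level of the shared chain was therefore lower in both knockdown libraries. The log2 fold change was -0.95 (SE 0.087, edgeR adjusted p = 1.5e-05). Osmr, which encodes the oncostatin M receptor (chromosome 15, 6813577 to 6874969, minus strand), had 1671 and 1605 counts in shNr4a3 (55.3 and 52.3 CPM), against 5331 and 6082 counts in shNT (187 and 199 CPM). The libraries of each group lay close together, far from those of the other group. Osmr fell by 1.84 on the log2 scale (SE 0.083, edgeR adjusted p = 2.16e-07), a level 3.58-fold lower. Lifr, the LIF receptor gene (chromosome 15, 7090614 to 7197489 in GENCODE, plus strand), was higher. It had 606 and 691 counts in shNr4a3 (20.1 and 22.5 CPM), against 304 and 335 counts in shNT (10.6 and 11.0 CPM). Its log2 fold change was 0.98 (SE 0.127, edgeR adjusted p = 1.46e-04), or 1.97-fold. Thus both the ligand Lif and the receptor chain Lifr were higher under the Nr4a3 hairpin, while Il6, Il6st and Osmr were lower. Markers of other cell types also moved in these libraries. Of 7 induced cardiomyocyte markers, 6 were higher, with Nppa at 4.80, Myoz2 at 3.85 and Actc1 at 3.71 on the log2 fold scale, and Tnnt2 was lower at -0.89. Because Tnnt2 dominates the list, its sum was 7420 to 8510 CPM in shNr4a3 and 13200 to 15400 CPM in shNT. Of 3 mural cell markers, Notch3 and Rgs5 were higher (log2 fold changes 1.27 and 1.35) and Pdgfrb was lower, with sums of 159 to 170 CPM in shNr4a3 and 175 to 186 CPM in shNT. Of 8 endothelial markers, 2 were higher, 2 lower and 4 not passed, with sums of 115 to 123 CPM in shNr4a3 and 117 to 132 CPM in shNT. No marker of these 3 lists was at 0, and their part in the receptor and ligand changes was not tested.

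Il1r1 had the largest absolute log2 fold change of the 9 genes tested. It encodes the signalling receptor for IL-1 alpha and IL-1 beta (chromosome 1, 40225080 to 40317257, plus strand). Its counts were 317 and 440 in shNr4a3 (10.5 and 14.3 CPM), against 2226 and 2072 in shNT (78.0 and 67.8 CPM). No library of either group came near the other group. The log2 fold change was -2.55 (SE 0.151, edgeR adjusted p = 1.05e-06), a level 5.87-fold lower, and 94.8% of all genes tested had a smaller absolute change. Il1r1 and Osmr are receptors that fibroblasts express, and fibroblast markers were measured beside them. Of 7 such markers, 5 were lower (Pdgfra, Tcf21, Col1a1, Col1a2 and Dcn), Lum was higher and Ddr2 did not pass, and none was at 0. Summed over the list they gave 3680 to 3850 CPM in shNr4a3 and 5640 to 5910 CPM in shNT, sums made up mostly of Col1a1 and Col1a2. The log2 fold change of the receptor gene Pdgfra (-2.26) lay between those of Il1r1 (-2.55) and Osmr (-1.84). That of the transcription factor gene Tcf21 (-3.35) was larger in size than both. Those of Col1a1 (-0.89), Dcn (-0.51) and Col1a2 (-0.42) were smaller in size than both. The part of these markers in the lower receptor levels was not tested. Lifr, also a receptor gene, was higher in these libraries.

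Stat3 and Socs3, the transcription factor and the feedback inhibitor of the pathway, were both lower. Stat3 (chromosome 11, 100885098 to 100939540, minus strand) had 1244 and 1480 counts in shNr4a3 (41.2 and 48.2 CPM), against 3864 and 4393 counts in shNT (135 and 144 CPM). Its log2 fold change was -1.64 (SE 0.099, edgeR adjusted p = 1.17e-06), a level 3.12-fold lower. Its exons overlap those of Stat5a, on the opposite strand, by 72 bases, and it was the one member of the 10 with such an overlap. Socs3 (chromosome 11, 117966079 to 117970047, minus strand) had 282 and 254 counts in shNr4a3 (9.34 and 8.27 CPM), against 873 and 532 counts in shNT (30.6 and 17.4 CPM). The control libraries differed widely for this gene, although both stayed above the knockdown libraries. Its log2 fold change was -1.44 (SE 0.238, edgeR adjusted p = 6.57e-04), and it was -1.001 without shNT replicate 1 and -1.80 without shNT replicate 2. The ratio of Socs3 to Stat3, per kilobase of gene length, was 0.747 and 0.566 in shNr4a3 and 0.745 and 0.399 in shNT, so the groups overlapped in this ratio.

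**Figure D2:**
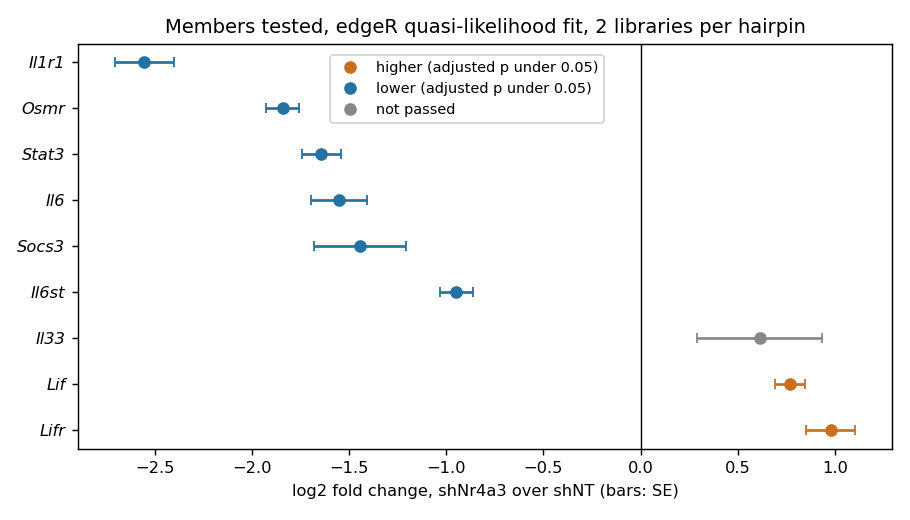
Log2 fold change of shNr4a3 over shNT (x axis, bars are SE) for the 9 genes tested, from the edgeR fit on 2 libraries per hairpin. Il1r1 is lowest at -2.55, Lifr is highest at 0.98, and Il33 at 0.61 did not pass.

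Levels of different genes were compared per kilobase of the deposited gene length. In shNr4a3 the order was Il6st (30.5 ± 1.68 CPM per kilobase), Lif (27.4 ± 0.581), Il6 (10.2 ± 2.38), Stat3 (4.69 ± 0.519), Osmr (4.44 ± 0.179), Socs3 (3.05 ± 0.261), Lifr (2.06 ± 0.167), Il1r1 (1.95 ± 0.426), Il33 (0.916 ± 0.0776) and Il1rl1 (SD, n = 2). In that group the ranges of Stat3 and Osmr overlapped, and so did those of Lifr and Il1r1. In shNT the order was Il6st (58.7 ± 4.83 CPM per kilobase), Il6 (29.9 ± 1.13), Lif (16.1 ± 0.337), Osmr (15.9 ± 0.719), Stat3 (14.6 ± 0.625), Il1r1 (11.5 ± 1.13), Socs3 (8.30 ± 3.22), Lifr (1.05 ± 0.0216), Il33 (0.599 ± 0.0453) and Il1rl1 at 0 (SD, n = 2). There the ranges of Lif and Osmr overlapped. Il6st was the most abundant of the 10 in both groups. Lif had rank 2 in shNr4a3 and rank 3 in shNT, whereas Il6 had rank 3 in shNr4a3 and rank 2 in shNT.

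Ratios taken within a library do not depend on the scaling between libraries. Lif over Il6, per kilobase, was 2.27 and 3.26 in the shNr4a3 libraries, against 0.545 and 0.532 in the shNT libraries. The 2 ligands therefore changed places as the more abundant one. Osmr over Lifr was 2.35 and 1.98 in shNr4a3, against 14.95 and 15.48 in shNT. Osmr remained the more abundant of these 2 receptor chains in every library, by a far smaller margin under the Nr4a3 hairpin. Lifr over Il6st was 0.0664 and 0.0689 in shNr4a3, against 0.0186 and 0.0171 in shNT. These ratios follow from the fold changes above and were not tested.

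**Figure D3:**
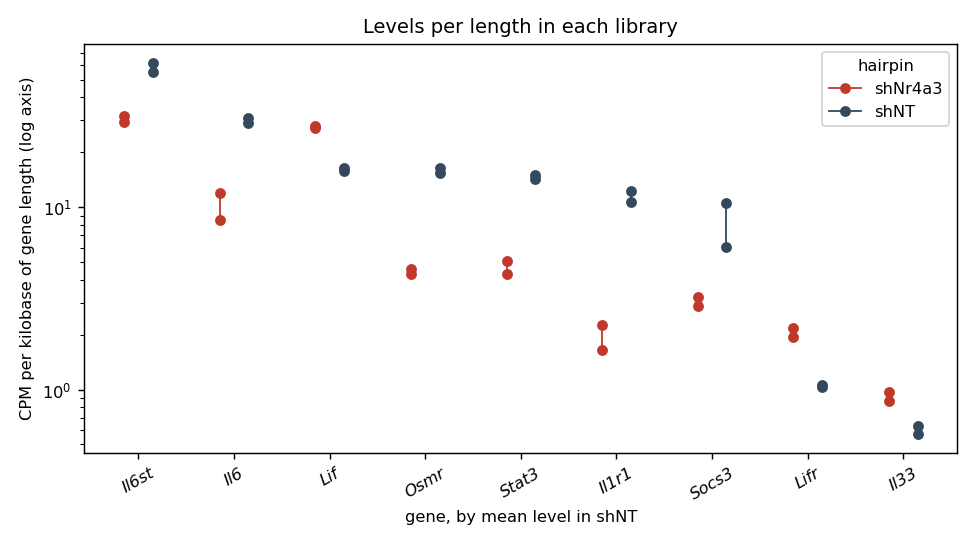
CPM per kilobase of gene length (log axis) in each library for the 9 genes with counts in both groups, ordered by their mean in shNT, with shNr4a3 to the left of shNT at each gene. Lif lies above Il6 in shNr4a3 and below it in shNT, and the gap between Osmr and Lifr is narrower in shNr4a3.

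The rest of both pathways was described from 7 lists holding 133 gene symbols, of which 93 were in the table and 76 were tested. Some IL-1 family genes are among the 133 under both an old and a newer symbol. Of the 76, 15 were higher, 31 lower and 30 did not pass. The share called, 60.5%, is near the 60.2% over all genes tested, and the share lower was 40.8% beside 29.4%. The lists were also chosen with earlier results of these data known, so no conclusion about the pathways is drawn from these shares.

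Other ligands and receptors of the IL-6 family were few. Of 16 listed, 10 were in the table and 6 were tested, with 2 higher, 1 lower and 3 not passed (median log2 fold change 0.54). The count of lower genes was 2 when the filter asked for at least 10 counts in each library of 1 group. Cntfr, the ciliary neurotrophic factor receptor that works with gp130 and the LIF receptor, had 33.0 and 36.2 CPM in shNr4a3, against 3.61 and 4.58 CPM in shNT. Its log2 fold change was 3.08 (SE 0.149, edgeR adjusted p = 3.09e-07). Clcf1, a ligand of that receptor, fell by 1.498 on the log2 scale to 3.99 ± 0.440 CPM in shNr4a3, against 11.3 ± 2.81 CPM in shNT. It overlaps another annotated gene on the same strand. Il11ra1, the IL-11 receptor, was higher by 0.82 on the log2 scale, with the doubt that the near-identical copy Il11ra2 can exchange reads with it. Il6ra, the private chain of IL-6, had 6.46 and 8.37 CPM in shNr4a3 and 4.97 and 5.40 CPM in shNT, and its log2 fold change of 0.52 did not pass (edgeR adjusted p = 0.0539). Osm, the gene of oncostatin M itself, had 2 and 0 counts in shNr4a3 and 2 and 0 counts in shNT, at or under the floor of 3 counts.

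The kinases, adaptors and feedback genes of the JAK-STAT chain went both ways. Of 23 listed, 18 were in the table and tested, with 5 higher, 9 lower and 4 not passed (median log2 fold change -0.60). The kinase gene Tyk2 was among those not in the table. The count of higher genes was 3 without shNT replicate 1 and 2 without shNT replicate 2. Socs2, another feedback inhibitor, had 12.2 and 8.66 CPM in shNr4a3, against 44.8 and 42.7 CPM in shNT (log2 fold change -2.07, SE 0.154, edgeR adjusted p = 4.26e-06). Adam17, the protease that sheds the IL-6 receptor, had 47.3 and 47.4 CPM in shNr4a3, against 141 and 135 CPM in shNT (log2 fold change -1.54), and its exons overlap Iah1 on the opposite strand. Both groups were tight for Adam17. Pias4, a SUMO ligase that inhibits STAT factors, was higher, at 56.5 ± 1.58 CPM in shNr4a3 and 20.9 ± 2.15 CPM in shNT (SD, n = 2 each). Stat5b had a log2 fold change of 0.09 (edgeR adjusted p = 0.502). The kinase genes Jak1 and Jak2 were lower, by -0.54 and -0.65 on the log2 scale. Both were named after their values were seen.

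Of 19 known target genes of STAT3 listed, 14 were in the table and 13 were tested. Of the 13, 7 were lower, 2 higher and 4 not passed (median log2 fold change -0.79). Over all genes tested, 29.4% were lower and 30.7% higher. The count of higher genes was 1 without shNr4a3 replicate 1, without shNT replicate 1, without shNT replicate 2 and with DESeq2. Serpina3n, an acute-phase serine protease inhibitor with close paralogues, had 10.1 and 11.9 CPM in shNr4a3, against 99.3 and 72.2 CPM in shNT (log2 fold change -2.97, SE 0.165, edgeR adjusted p = 7.51e-07). Ptx3, a secreted pentraxin of the acute phase, fell to 52.2 ± 5.68 CPM in shNr4a3, against 298 ± 24.2 CPM in shNT (log2 fold change -2.51). The kinase gene Pim1 was lower by -1.57 on the log2 scale. These 3 had the largest absolute changes of the list. Nfil3, a basic leucine zipper repressor, went the other way, with 82.7 and 73.1 CPM in shNr4a3 and 33.1 and 32.8 CPM in shNT (log2 fold change 1.24). Bcl6 had a log2 fold change of 0.20 (edgeR adjusted p = 0.214).

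The agonist genes Il1a and Il1b, which encode the ligands of Il1r1, were barely detected. Il1a had 0 counts in both shNr4a3 libraries and 2 and 14 counts in the shNT libraries. Il1b had 0 and 2 counts in shNr4a3 and 0 and 6 in shNT. Of 23 gene symbols listed for the family, 13 were in the table and 4 were tested, with 0 higher and 2 lower. The 23 include both the old and the newer symbol of some genes, such as Il1f6 and Il36a. Il1rn, the natural receptor antagonist, had 8 and 12 counts in shNr4a3, against 136 and 138 in shNT (log2 fold change -3.80, SE 0.376, edgeR adjusted p = 2.52e-05). Il1rap, the accessory chain that Il1r1 and ST2 share, had 36.9 and 33.4 CPM in shNr4a3, against 76.7 and 76.9 CPM in shNT (log2 fold change -1.13). Both chains of the IL-1 receptor were therefore lower. Il1rl2, the IL-36 receptor, had a log2 fold change of -0.36 (edgeR adjusted p = 0.107). Macrophages also make Il1rn and Il6, and some of their markers also fell. Of 14 macrophage markers tested, 6 were lower, 0 higher and 8 not passed, where 60.2% of all genes tested were called. None of the markers was at 0, and they summed to 161 to 166 CPM in shNr4a3 and 185 to 237 CPM in shNT. Lyz2, which did not pass, made up most of these sums, at 135 CPM in shNr4a3 and 152 CPM in shNT. Among the markers that were lower, the log2 fold changes were -1.82 for C1qa, -1.78 for Adgre1 and -1.61 for Cd68. Their part in these results was not tested.

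Of 19 genes listed for the signalling chain downstream of the IL-1 receptor, 12 were in the table and tested. Myd88, Irak1 and Irak2 were among those not in the table. Of the 12, 4 were higher, 3 lower and 5 did not pass (median log2 fold change 0.11). Irak3, a member of the receptor-associated kinase family that dampens the signal, fell by 1.71 on the log2 scale to 15.6 ± 3.86 CPM in shNr4a3, against 50.8 ± 0.334 CPM in shNT. It overlaps Tmbim4 on the opposite strand. Tab2, an adaptor of the kinase TAK1, was lower by -1.11 and Peli1, a ubiquitin ligase of the pathway, higher by 0.81. Map3k7, the gene of TAK1 itself, and Traf6 were also higher, by 0.70 and 0.80. These 2 were named after their values were seen. Ube2n had a log2 fold change of -0.10 (edgeR adjusted p = 0.372).

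Genes that NF-kB and IL-1 induce were split. Of 23 listed, 18 were in the table and 15 were tested, with 5 lower, 2 higher and 8 not passed (median log2 fold change -0.14). Over all genes tested, 60.2% were called. The chemokine genes Ccl2 and Ccl7 had log2 fold changes of -4.37 and -3.43, the adhesion molecule gene Vcam1 of -2.37, and the chemokine genes Cxcl1 and Cxcl5, named after their values were seen, of -1.91 and -1.57. Cxcl2, a further chemokine gene named after its value was seen, did not pass (log2 fold change -1.10, edgeR adjusted p = 0.0865). The inhibitor gene Tnfaip3 was higher by 1.87, with 46.8 and 51.4 CPM in shNr4a3 and 11.4 and 15.4 CPM in shNT. Ptgs2, also named after its value was seen, was higher by 1.02. It had 116 and 123 CPM in shNr4a3 and 68.0 and 49.9 CPM in shNT. Csf1 was abundant in both groups, at 1142 ± 26.3 CPM in shNr4a3 and 1204 ± 51.4 CPM in shNT, and did not pass (log2 fold change -0.08, edgeR adjusted p = 0.399). Nfkbia, the feedback inhibitor that NF-kB induces, had 18.1 CPM in shNr4a3 and 18.0 CPM in shNT, with a log2 fold change of 0.00 (edgeR adjusted p = 0.982), and was also named after its value was seen.

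Regulators of the decay of Il6 mRNA were the last list. Of 10 listed, 8 were in the table and tested, with 4 lower, 0 higher and 4 not passed (median log2 fold change -0.18). Zfp36 was among those not in the table. Zfp36l2 and Zfp36l1, which bind AU-rich elements and promote decay, were lower by -2.56 and -0.54 on the log2 scale. Zfp36l2 had 12.4 and 14.4 CPM in shNr4a3, against 81.4 and 76.2 CPM in shNT, and both genes overlap non-coding transcripts on the opposite strand. Zc3h12a, which encodes the endonuclease Regnase-1 that cleaves Il6 mRNA, had 3.94 ± 0.139 CPM in shNr4a3 and 8.96 ± 0.885 CPM in shNT (log2 fold change -1.18, SE 0.190, edgeR adjusted p = 5.56e-04). Khsrp had a log2 fold change of 0.04 (edgeR adjusted p = 0.739).

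**Figure D4:**
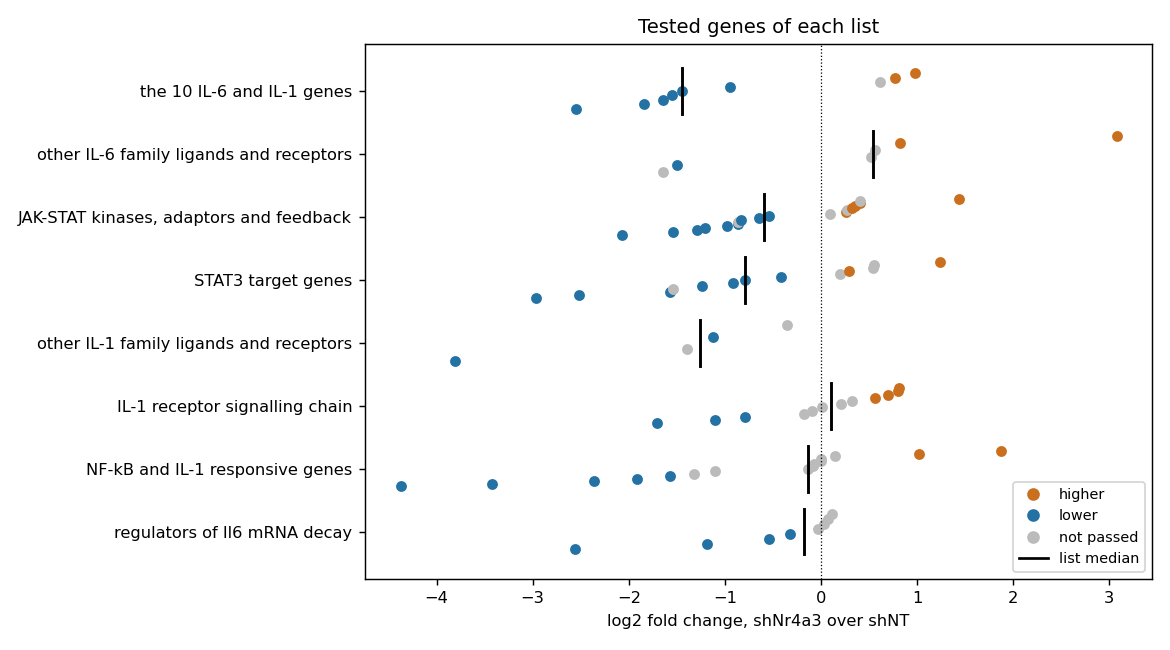
Log2 fold change of shNr4a3 over shNT (x axis) for every tested gene of each list (rows), coloured by the edgeR call, with a bar at each list's median. The medians run from -1.44 for the 10 genes described first to 0.54 for other IL-6 family genes, where Cntfr stands at 3.08.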

How the data were processed

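RNA-seq libraries of MGT-treated cardiac fibroblasts (2 shNr4a3, 2 shNT) were compared. Per the labels' protocols, RNA was depleted of ribosomal RNA and made into stranded paired-end libraries, although the molecule label reads polyA. Per the submitters' processing notes, the tools were Trimmomatic 0.36, SAMtools and featureCounts of Subread 1.5.1 with build mm10. The aligner, the annotation and whether counting used strand were not given in the sources used. Raw counts per gene, without normalization, and a gene length were deposited. The table holds 16 chromosomes, chromosome 6 up to a gene start at 70215400, and genes elsewhere were not analysed here, so column totals are not sequencing depth. Of its genes, 98.1% matched GENCODE M21 by symbol and chromosome, which gave coordinates and exon overlaps. With the strand setting unknown, overlapping genes on opposite strands cannot be told apart. Beside the overlaps given in the results, exons of Il6ra, Il1rap, Il11ra1, Jak1, Pim1, Bcl6, Vcam1, Khsrp, Il1a and Il1b overlap another annotated gene on the opposite strand. So do exons of the markers Nppa, Notch3, Pdgfra and Ddr2.

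From the counts, edgeR 4.0.16 (R 4.3.3) was run with TMM, filterByExpr, the hairpin as the only term, the quasi-likelihood F test and Benjamini-Hochberg adjustment over all genes tested, with a threshold of 0.05. It was also run on simulated data in which few genes changed, whereas 60.2% of genes tested were called here. That run therefore does not test the calls in these data. SE is the size of the log2 fold change divided by the square root of F. Same-group libraries differed by more than counting noise (chi-square over its degrees of freedom 22.1 in shNr4a3 and 10.6 in shNT), and all 4 were kept. Alternatives were RLE scaling, column totals, other filters, DESeq2 1.42.0, limma-voom (limma 3.58.1), a replicate block and leaving out each library. The 10 genes and the lists were chosen with earlier results of these data known. From each list the text names the 3 called genes with the largest absolute change, the largest call in the minority direction and the most abundant gene not passed, with exceptions stated. Promoter windows are RefSeq's.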

Additional observations from a re-analysis of the deposited data

How the results depend on the processing

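Over the alternatives run (RLE factors, column totals, no low-count filter, at least 10 counts in each library of 1 group, DESeq2, limma-voom, a replicate block and leaving out each library), the calls were 2 higher and 6 lower among the 10 genes every time. Each of the 9 tested genes kept its direction and its side of the threshold in 11 of 11 alternatives. Ranges of the log2 fold change were -2.81 to -2.34 for Il1r1, -1.91 to -1.80 for Osmr, -1.77 to -1.53 for Stat3, -1.81 to -1.34 for Il6, -1.797 to -1.001 for Socs3, -1.05 to -0.86 for Il6st, 0.73 to 0.79 for Lif, 0.88 to 1.06 for Lifr and 0.51 to 0.70 for Il33. The highest adjusted p among the 8 called genes was 0.00173, for Socs3 with limma-voom, and that of Il33 was 0.358 without shNr4a3 replicate 2. Leaving out Stat3, which overlaps Stat5a, gave 5 lower. Ranks per length were the same with column totals and with GENCODE lengths.

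Replicate numbers are shared between the groups, but the labels do not say that they mark a common culture, and deviations of same-numbered libraries correlated at 0.05 over 10736 genes. With the replicate block, 3404 genes were higher and 3255 lower in the whole table, against 3300 and 3158 without it. Il6ra passed under the replicate block (adjusted p = 0.0446), with no low-count filter (0.0486) and without shNr4a3 replicate 1 (0.0205), and Il1rl2 passed as lower without shNr4a3 replicate 2 (0.0333). With each library left out in turn, the log2 fold change of Stat5b ran from -0.0545 (without shNr4a3 replicate 2) to 0.224, and that of Khsrp from -0.0288 (without shNr4a3 replicate 2) to 0.0917, with -0.0152 without shNT replicate 1. Neither gene passed in those fits, and the cause was not tested. Where a group is left with 1 library, that library is assumed to vary like those of the other group. Depth limits Il1rl1, Osm, Il1a and Il1b, whose counts lie near the floor.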
